A study of Homo sapiens with 9 samples.

Results

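The 39 genes described here encode the degradative machinery of the lysosome: 19 acid hydrolases and their cofactors, 6 proteins of membrane transport and sterol transfer, and 14 subunits of the proton pump, counting its accessory protein ATP6AP1. They were taken as a list of human symbols and matched to the Ensembl IDs of the deposited tables through a gene name table. All 39 were found among the 63241 genes of those tables, and all 39 were among the 14592 genes with enough counts to be tested. RNA was measured in MEG-01 cells, megakaryoblasts that were established as a line from human leukaemia, in 3 groups of 3 libraries each. As2S2 (arsenic disulfide) was given to the first group and PMA, a phorbol ester that switches on protein kinase C and drives this line towards megakaryocytes, to the second, while the third was labelled only as control. The question posed is whether As2S2 acts on megakaryocyte maturation through SRC, MEK and ERK. No dose, treatment time or control vehicle is given in the labels, every library comes from this 1 line, and separate cultures are not stated for the replicates. The tests therefore weigh differences against the spread of these libraries, and that spread may be technical. One control library carries a label for another organism. The gene identifiers are human, but all libraries in a table share them, so they cannot settle what that library holds. It was treated as human.

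Lysosomes are acidic organelles in which hydrolases cut proteins, sugars and lipids into parts that transporters return to the cytosol. The vacuolar proton pump (V-ATPase) keeps them acidic: its V1 sector in the cytosol splits ATP, and its V0 sector in the membrane carries the protons. In many human cell types the factors TFEB, TFE3 and MITF bind E-box elements in promoters of lysosomal genes, and in megakaryocytes and platelets lysosomes form one of the classes of secretory granules.

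Libraries held 18.2 to 20.37 counts in units of 1e6. Control replicate 2 and As2S2 replicate 1 stood apart on the third principal component of log2 CPM, at -29.8 and 19.7, against 10.1 to 17 for the other control libraries and -10.8 to -7.8 for the other As2S2 libraries. PMA libraries lay between -1.2 and 3.4. On the second component all 3 control libraries, the one labelled with another organism included, lay at 34.1 to 36. As2S2 libraries lay there at -37.9 to -32.7 and PMA libraries at 0.1 to 0.7. Of the defining genes of the labelled cell type, the integrin chain ITGA2B and the factor GATA1 had at least 330.3 and 88.8 CPM in every library. The 16 megakaryocyte markers checked summed to 331.2 to 383.3 TPM in As2S2 libraries, 314.8 to 345.0 TPM in PMA libraries and 427.6 to 461.7 TPM in control libraries, and 15 of them could be tested. By gene, 5 of these 15 rose and 3 fell with As2S2, and 10 rose and 3 fell with PMA (median log2 fold change 1.10), so the summed level with PMA lay below control while most of the markers rose. With deposited TPM the PMA count was 7 higher and 4 lower (median 0.15). Over all genes tested 20.3% rose and 19.6% fell with As2S2, and 30.8% rose and 31.1% fell with PMA. The platelet chemokine PF4 was at 0 in 7 of the 9 libraries and had at most 0.108 CPM. CPM here are counts per unit of 1e6 counts of a library after TMM scaling, and TPM are the authors' deposited values per transcript length. In bulk RNA such as this, fewer cells of a type and less RNA per cell cannot be told apart.

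Promoters of several of these genes carry the E-box, which is why a few are printed before the values. RefSeq promoter windows of GRCh38.p14, from 250 bases before to 50 bases after a start site, were at hand for 26 of the 39 genes. The windows of CTSB, CTSS, HEXA, MANBA, ASAH1, PSAP, LGMN, LAMP2, ATP6V0E1, ATP6V1A, ATP6V1B2, ATP6V1C1 and ATP6V1H were not used here. The E-box CACGTG, which reads the same on both strands, occurred in windows of 9 of the 26 genes (34.6%), against 8.77% of 27305 genes with a window. Each of the 9 also held the longer form TCACGTG on 1 strand or the other, which overlaps the E-box and was found for 4.49% of all genes. The antioxidant element TGACNNNGC, searched on both strands, was found for 15 of the 26 (57.7%), against 16.1% of all genes. LIPA, NPC2 and ATP6V0C had it in only 1 of several windows, and a gene counted if any of its windows matched. All genes here are those with a window, expressed in these cells or not, whereas the 26 were all expressed enough to be tested. Matches describe the letters in these windows and are not measured binding sites. The 6 stretches shown, each ending at the base before the start site and written 5′ to 3′ on the gene's own strand with E-boxes in capitals, are those of 4 genes that rose with As2S2 and 2 that did not. LAMP1 stands at chr13:113297039-113297238 on the plus strand, CTSA at chr20:45891235-45891334 on the plus strand, ATP6V0D1 at chr16:67481158-67481257 on the minus strand, ATP6V0B at chr1:43974860-43974959 on the plus strand, MCOLN1 at chr19:7522524-7522623 on the plus strand and GAA at chr17:80101481-80101580 on the plus strand.
LAMP1: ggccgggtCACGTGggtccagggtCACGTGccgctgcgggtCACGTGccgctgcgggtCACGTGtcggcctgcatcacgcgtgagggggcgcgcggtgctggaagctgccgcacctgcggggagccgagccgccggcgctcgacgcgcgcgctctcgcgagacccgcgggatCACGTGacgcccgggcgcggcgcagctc
CTSA: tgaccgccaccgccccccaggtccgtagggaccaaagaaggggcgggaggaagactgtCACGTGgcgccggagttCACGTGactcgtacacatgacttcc
ATP6V0D1: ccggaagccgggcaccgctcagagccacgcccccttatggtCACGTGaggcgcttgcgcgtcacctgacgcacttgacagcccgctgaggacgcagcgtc
ATP6V0B: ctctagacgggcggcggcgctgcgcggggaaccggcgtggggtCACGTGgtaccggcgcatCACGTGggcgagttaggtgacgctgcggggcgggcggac
MCOLN1: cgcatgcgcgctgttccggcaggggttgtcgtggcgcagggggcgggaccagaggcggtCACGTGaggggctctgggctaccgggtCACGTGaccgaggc
GAA: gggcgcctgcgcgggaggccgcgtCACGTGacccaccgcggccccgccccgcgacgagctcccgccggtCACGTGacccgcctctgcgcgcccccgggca

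LAMP1 had the most E-boxes, 5 in the 200 bases shown and 6 in its whole window. CTSA, ATP6V0B, MCOLN1 and GAA had 2 each in the bases shown, and ATP6V0D1 had 1.

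Levels of the 39 genes spanned several orders of magnitude in TPM, the scale on which genes can be set side by side. Summed over the 19 hydrolases and cofactors, the level was 1276.6 to 1313.8 TPM in As2S2 libraries, 1289.5 to 1355.7 TPM in PMA libraries and 1034.7 to 1070.8 TPM in control libraries. The 6 membrane and sterol transfer genes summed to 193.9 ± 2.27 TPM in As2S2 libraries, 188.2 ± 3.1 TPM in PMA libraries and 128.2 ± 5.69 TPM in control libraries (SD, n = 3 each). The 14 proton pump genes summed to 1250.6 to 1364.4 TPM in As2S2 libraries, 1194.3 to 1300.6 TPM in PMA libraries and 918.6 to 1037.7 TPM in control libraries. For each class the treated libraries of both kinds lay above all control libraries on this scale.

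The most abundant members were the pump subunits ATP6V1F and ATP6V0B and the sphingolipid activator precursor PSAP. ATP6V0B, a subunit of the membrane ring, had 315.8, 393.3 and 383.9 TPM in As2S2 libraries, 275.1, 274.2 and 309.3 TPM in PMA libraries and 207.0, 275.9 and 209.4 TPM in control libraries. PSAP averaged 258.4 ± 18.7 TPM in As2S2 libraries, 204.9 ± 3.6 TPM in PMA libraries and 234.9 ± 2.39 TPM in control libraries, so its mean ranked the third, the fifth and the second of the 39 in these groups. CTSL changed place in this order: its mean TPM ranked 4 in As2S2 libraries, 2 in PMA libraries and 9 in control libraries. In PMA libraries the values of ATP6V1F, CTSL and ATP6V0B, the 3 highest, overlapped, so their order is not beyond their spread. At the low end stood GAA, MANBA, LGMN and CTSZ in As2S2 and in control libraries, while in PMA libraries LGMN and MANBA overlapped. CTSZ, a carboxypeptidase, was close to absent, with 27, 31 and 12 counts summed over the As2S2, PMA and control libraries.

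**Figure D1:**
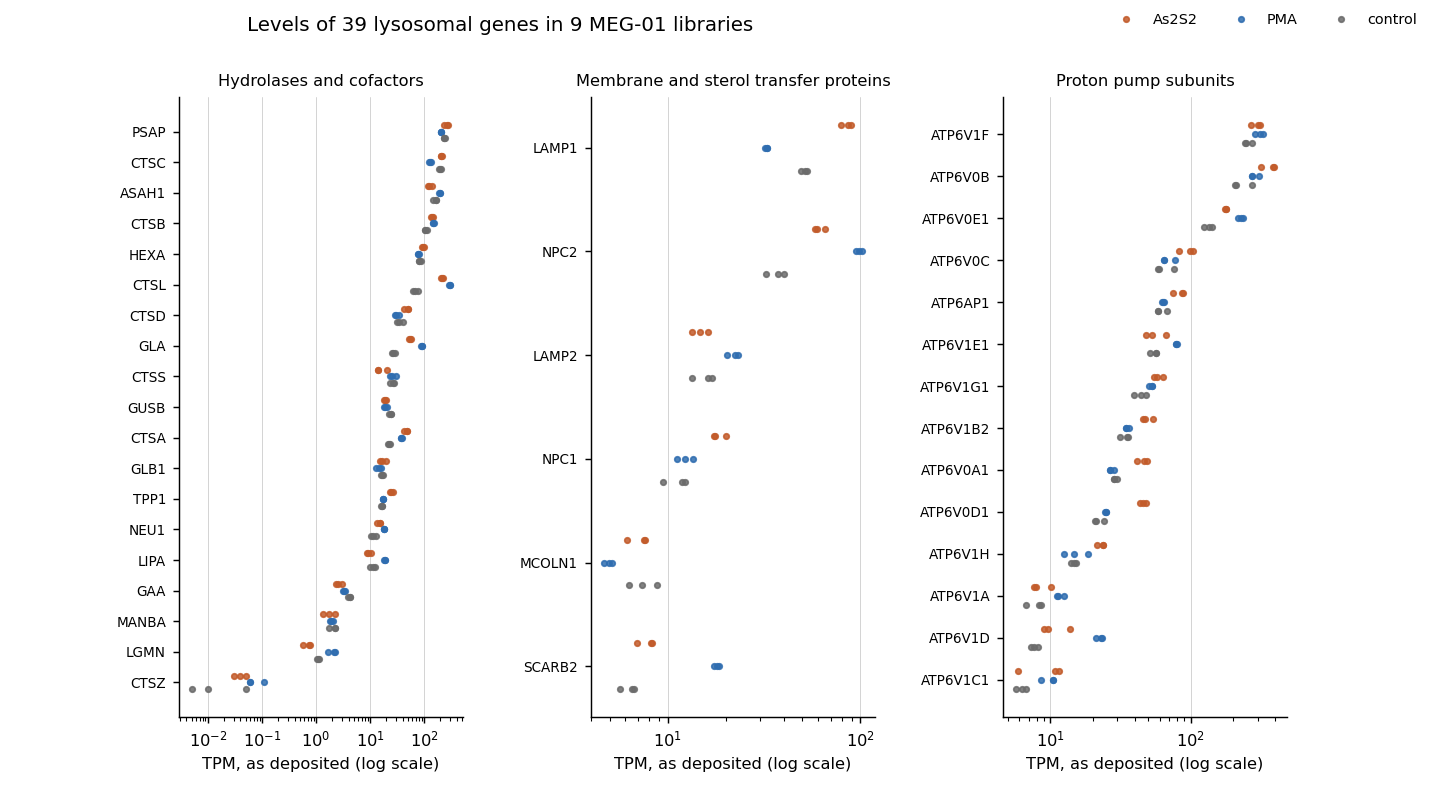
TPM of each of the 39 genes in every library, on a log axis, with As2S2, PMA and control libraries on separate lines within each gene and genes ordered by their control mean. CTSL lies to the right of control in all treated libraries, CTSC lies to the left of control with PMA alone, and a value of 0 TPM (1 control library of CTSZ) is drawn at the left edge.

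Most of these genes rose with As2S2. Against control, 24 of the 39 rose and 4 fell, and 11 did not pass an adjusted p of 0.05 (edgeR quasi-likelihood test with Benjamini-Hochberg adjustment over all genes tested). Among all genes tested 39.9% passed, with 20.3% of all genes higher and 19.6% lower. A log2 fold change of at least 1 was reached by 4 members that rose (CTSL, CTSA, ATP6V0D1 and GLA), against 4.24% of all genes. The median log2 fold change was 0.53 for the members and 0.00 for all genes. The proton pump stood highest: 12 of its 14 genes rose, none fell, and the median was 0.60. All 5 V0 subunits rose, with a median of 0.76, and 6 of the 8 V1 subunits rose, with a median of 0.55. Of the membrane and sterol transfer genes 3 of 6 rose and none fell, and the median was 0.44. The hydrolases divided, with 9 of 19 higher, 4 lower, 6 past no threshold and a median of 0.27, which was 0.19 with library totals, 0.09 with deposited TPM and 0.38 without both libraries that stood apart. Without both libraries that stood apart, 26 members rose and 4 fell. Calls over all genes grew as well, to 3791 higher and 3698 lower, in place of 2962 and 2859.

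Most also rose with PMA, the known inducer, on the TMM scale. Of the 39 genes 32 rose and 1 fell, while 61.9% of all genes tested passed, 30.8% upward and 31.1% downward. A log2 fold change of at least 1 was reached by 13 members, against 11.8% of all genes. The median log2 fold change was 0.65 for the members and 0.00 for all genes. All 14 pump genes rose (median 0.74), as did 14 of 19 hydrolases (median 0.57) and 4 of 6 membrane and sterol transfer genes (median 0.60), with LAMP1 the gene that fell. These PMA counts depend on the scaling, which shifts the median of all genes by -0.26 (log2) where library totals or deposited TPM take the place of TMM. With library totals 24 members rose and 3 fell, and with deposited TPM 19 rose and 5 fell, while over all genes tested 2955 were higher and 6476 lower, and 1971 higher and 6984 lower, in place of 4494 and 4540. The median of the members was then 0.38 and 0.16, that of the pump genes 0.48 and 0.26, that of the hydrolases 0.31 and 0.08 and that of the membrane and sterol transfer genes 0.34 and 0.31. Of the 33 members called, 8 lost the call with library totals, and 11 lost it with deposited TPM and 2 passed in the opposite direction. A further 14 calls kept with deposited TPM were smaller in log2 value by over 1.5 times, and CTSL, GLA, SCARB2, NPC2 and ATP6V1D kept theirs within that range. The pump genes gave 12 higher and 8 higher, with none lower, and the hydrolases 9 higher with 1 lower and 8 higher with 3 lower. For As2S2 against control the same scalings shifted the median of all genes by -0.08 and -0.07, and gave 24 members higher with 4 lower and 22 higher with 5 lower. The share of upward calls among all genes was then 39.3% and 35.5%, in place of 50.9%. Without both libraries that stood apart, 34 members rose with PMA and 1 fell. Calls over all genes grew as well, to 5121 higher and 4955 lower.

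**Figure D2:**
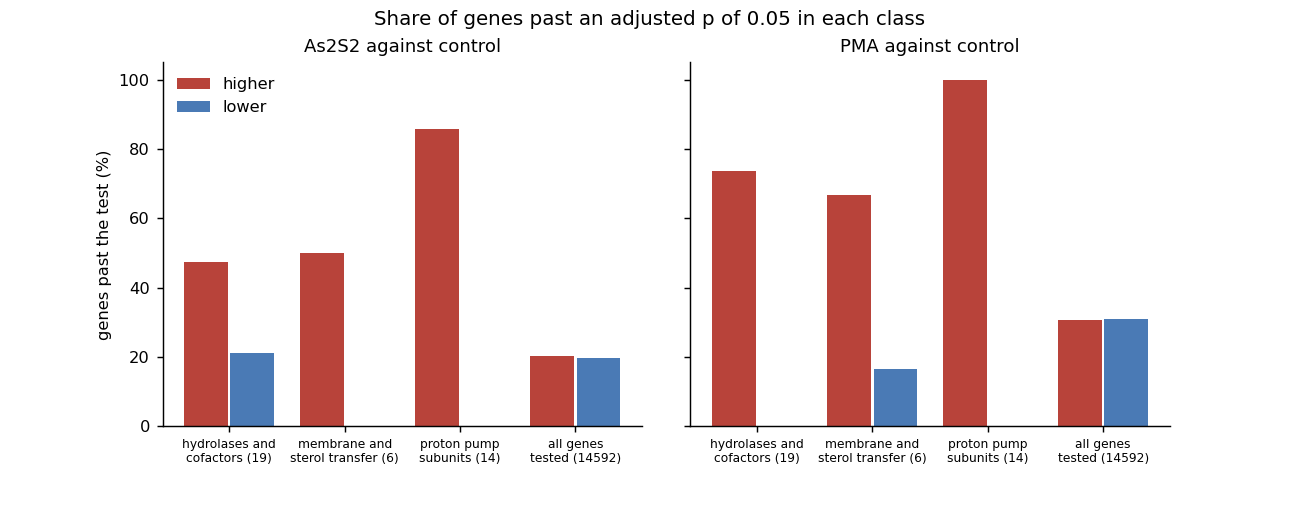
Share of genes past an adjusted p of 0.05 in each class, higher (red) and lower (blue), with As2S2 against control on the left and PMA against control on the right, beside all 14592 genes tested. The pump bars reach 85.7% and 100%, and among the 3 classes downward calls are confined to hydrolases with As2S2 (21.1%) and to 1 of 6 membrane genes with PMA (16.7%).

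Among the cathepsins, the lysosomal proteases, CTSL changed most. CTSL, a cysteine endopeptidase, had 354.2, 341.7 and 347.4 CPM in As2S2 libraries, 606.9, 613.8 and 587.6 CPM in PMA libraries and 97.4, 101.2 and 110.0 CPM in control libraries. The 3 groups did not overlap. As log2 fold changes these values gave 1.76 ± 0.07 (adjusted p = 2.51e-11) for As2S2 against control and 2.55 ± 0.07 (adjusted p = 3.27e-14) for PMA against control, and -0.79 ± 0.06 (adjusted p = 2.63e-08) for As2S2 against PMA.

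CTSA is a carboxypeptidase that also holds the sialidase NEU1 and the galactosidase GLB1 together in a complex. It had 96.3, 112.0 and 113.3 CPM in As2S2 libraries, 113.2, 110.6 and 99.8 CPM in PMA libraries and 46.8, 46.2 and 45.0 CPM in control libraries. Treated libraries of both kinds lay above control and overlapped each other. The log2 fold change was 1.22 ± 0.08 (adjusted p = 1.73e-08) for As2S2 and 1.23 ± 0.08 (adjusted p = 2.12e-09) for PMA against control, and -0.01 ± 0.08 (adjusted p = 0.934) between As2S2 and PMA.

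CTSB, another cysteine protease, had 408.9, 442.5 and 454.1 CPM in As2S2 libraries, 596.1, 595.9 and 566.3 CPM in PMA libraries and 290.5, 334.5 and 298.1 CPM in control libraries. It rose in both comparisons with control, by 0.50 ± 0.07 (adjusted p = 4.15e-05) with As2S2 and 0.93 ± 0.07 (adjusted p = 1.1e-08) with PMA on the log2 scale, with no overlap between the 3 groups. CTSA, CTSB and GLA held whole counts in 4 of the 9 libraries, and estimated counts that are not whole can come from reads shared with other genes, so their values are less certain.

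CTSD, the main aspartic protease of the lysosome, had 82.0, 101.0 and 98.4 CPM in As2S2 libraries, 72.8, 73.9 and 82.4 CPM in PMA libraries and 59.9, 80.1 and 55.1 CPM in control libraries. CTSD rose with As2S2, at 0.53 ± 0.12 (adjusted p = 0.00212), and was 0.23 ± 0.12 (adjusted p = 0.0997) with PMA against control on the log2 scale. Control replicate 2 overlapped the PMA libraries, and without that library the PMA value was 0.40 (adjusted p = 0.0009). No library held whole counts of CTSD, HEXA, NPC1 or CTSZ, so these genes are reported as uncertain.

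CTSS, a cysteine protease that stays active near neutral pH and is best known from antigen-presenting cells, moved in opposite directions under the 2 agents. It had 45.6, 32.9 and 32.2 CPM in As2S2 libraries, 74.4, 79.0 and 82.3 CPM in PMA libraries and 55.6, 54.3 and 59.9 CPM in control libraries. The As2S2 libraries lay below control and the PMA libraries above it, with no overlap. It fell with As2S2, at -0.62 ± 0.11 (adjusted p = 0.000409), and rose with PMA, at 0.47 ± 0.11 (adjusted p = 0.00137). The rise with PMA was 0.21 (adjusted p = 0.125) with library totals and 0.01 (adjusted p = 0.95) with deposited TPM, whereas the fall with As2S2 was -0.70 and -0.65.

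CTSC, the dipeptidyl peptidase that activates granule serine proteases, had 223.4, 217.4 and 221.1 CPM in As2S2 libraries, 185.0, 194.1 and 185.6 CPM in PMA libraries and 185.7, 211.8 and 199.1 CPM in control libraries. It did not pass against control, with 0.15 ± 0.07 (adjusted p = 0.0853) for As2S2 and -0.08 ± 0.07 (adjusted p = 0.318) for PMA. PMA libraries lay below As2S2 libraries, and the log2 fold change of As2S2 against PMA was 0.23 ± 0.07 (adjusted p = 0.00712). Without control replicate 2 the As2S2 value passed, at 0.20 (adjusted p = 0.0194). The PMA value against control was -0.34 (adjusted p = 0.000105) with library totals and -0.63 (adjusted p = 3e-06) with deposited TPM. CTSZ had at most 0.807 CPM in any library and its groups overlapped. The log2 fold change with PMA was 1.61 ± 0.61 (adjusted p = 0.0305). DESeq2 put the adjusted p at 0.0551, and without control replicate 1 the log2 value was 2.93, but 1.13 without control replicate 3. CTSZ only just cleared the filter on low counts, and without PMA replicate 3 it did not.

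The glycosidases take sugars off glycolipids, glycoproteins and glycogen. GLA, the alpha-galactosidase of globotriaosylceramide, rose most: it had 88.5, 82.9 and 87.5 CPM in As2S2 libraries, 184.9, 185.8 and 180.8 CPM in PMA libraries and 37.4, 39.7 and 39.5 CPM in control libraries. The groups did not overlap. On the log2 scale GLA rose by 1.15 ± 0.07 (adjusted p = 4.99e-09) with As2S2 and 2.24 ± 0.07 (adjusted p = 2.01e-13) with PMA against control, and As2S2 against PMA gave -1.09 ± 0.07 (adjusted p = 8.44e-10).

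The sialidase NEU1 rose in both comparisons with control, by 0.42 ± 0.10 (adjusted p = 0.00247) with As2S2 and 1.11 ± 0.10 (adjusted p = 4.59e-08) with PMA. It averaged 55.3 ± 4.43 CPM in As2S2 libraries, 89.1 ± 2.66 CPM in PMA libraries and 41.4 ± 5.53 CPM in control libraries. HEXA, a hexosaminidase chain, rose by 0.33 ± 0.08 (adjusted p = 0.00237) with As2S2 and 0.40 ± 0.08 (adjusted p = 0.000245) with PMA. The PMA value of HEXA was 0.14 (adjusted p = 0.0696) with library totals and -0.09 (adjusted p = 0.2) with deposited TPM. GLB1, the beta-galactosidase, and MANBA, the beta-mannosidase, passed in neither comparison, with GLB1 at 0.13 and 0.20 and MANBA at -0.07 and 0.11 for As2S2 and PMA. GLB1 lay near the threshold with PMA (adjusted p = 0.0581) and passed under 9 alternatives, such as leaving out control replicate 2 (0.25, adjusted p = 0.0189) or the pair of libraries that stood apart (0.25, adjusted p = 0.00243). Without that pair it also passed with As2S2, at 0.24 (adjusted p = 0.0113), and with library totals its PMA value was -0.06.

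GAA, the enzyme that degrades glycogen in lysosomes, fell with As2S2, at -0.49 ± 0.12 (adjusted p = 0.00448), and averaged 11.1 ± 1.53 CPM in As2S2 libraries, 17.9 ± 0.759 CPM in PMA libraries and 15.6 ± 1.7 CPM in control libraries. With PMA its value was 0.20 ± 0.12 (adjusted p = 0.158), and PMA and control libraries overlapped. Without control replicate 2 the PMA value passed, at 0.28 (adjusted p = 0.0436). GUSB, the beta-glucuronidase, lay near the threshold in both comparisons. The log2 fold change was -0.25 ± 0.10 (adjusted p = 0.0487) with As2S2, a call lost on leaving out any 1 of 7 of the 9 libraries, at -0.15 without control replicate 2. With PMA it was 0.23 ± 0.10 (adjusted p = 0.0423), again lost on leaving out any 1 of 7 libraries, and deposited TPM gave -0.29 (adjusted p = 0.00674).

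The lipid enzymes and their activator differed among themselves. ASAH1, the acid ceramidase, had 236.4, 192.2 and 201.9 CPM in As2S2 libraries, 421.9, 431.8 and 422.7 CPM in PMA libraries and 280.6, 257.6 and 277.7 CPM in control libraries. As2S2 libraries lay below control and PMA libraries above, with no overlap. It fell with As2S2, at -0.37 ± 0.08 (adjusted p = 0.00113), and rose with PMA, at 0.65 ± 0.08 (adjusted p = 1.84e-06). Whole counts of ASAH1 were held by 2 of the 9 libraries.

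LIPA, the acid lipase that frees cholesterol and fatty acids from lipoproteins, had 30.9, 27.2 and 26.1 CPM in As2S2 libraries, 72.5, 73.8 and 70.4 CPM in PMA libraries and 30.7, 29.3 and 32.6 CPM in control libraries. As2S2 and control libraries overlapped, and PMA libraries lay above both. LIPA did not pass with As2S2, at -0.14 ± 0.09 (adjusted p = 0.24), and rose by 1.23 ± 0.09 (adjusted p = 4.16e-09) with PMA. Without both libraries that stood apart the As2S2 value of LIPA was -0.24 (adjusted p = 0.00822). PSAP, which is cut into saposins that help sphingolipid hydrolases, rose by 0.27 ± 0.07 (adjusted p = 0.00576) with As2S2 and 0.28 ± 0.07 (adjusted p = 0.00274) with PMA, but with deposited TPM these values were 0.13 (adjusted p = 0.096) and -0.20 (adjusted p = 0.0117).

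Of the other peptidases, TPP1 removes tripeptides from protein ends and LGMN (legumain) cuts after asparagine and activates cathepsins. TPP1 had 90.7, 92.7 and 104.8 CPM in As2S2 libraries, 90.2, 90.9 and 86.3 CPM in PMA libraries and 59.7, 63.4 and 57.2 CPM in control libraries. Treated libraries lay above control, and As2S2 and PMA libraries overlapped. It rose by 0.68 ± 0.08 (adjusted p = 5e-06) with As2S2 and by 0.57 ± 0.08 (adjusted p = 8.63e-06) with PMA, a PMA value that was 0.08 (adjusted p = 0.315) with deposited TPM. LGMN was low, at 1.53 ± 0.342 CPM in As2S2 libraries, 4.91 ± 0.596 CPM in PMA libraries and 1.71 ± 0.227 CPM in control libraries, and its log2 fold change was -0.16 ± 0.24 (adjusted p = 0.639) with As2S2 and 1.52 ± 0.21 (adjusted p = 1.04e-05) with PMA.

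**Figure D3:**
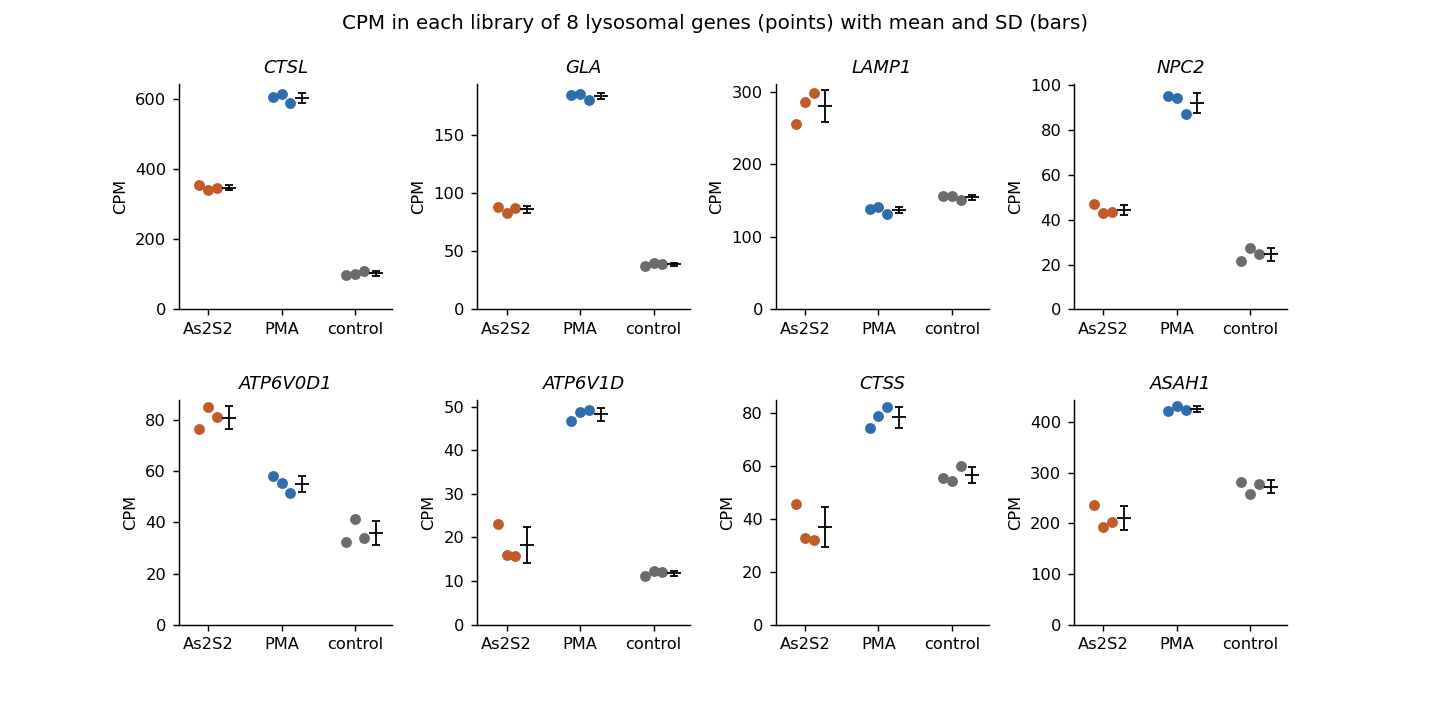
CPM of 8 members in every library, with the mean and SD of each group of 3 beside the points and each vertical axis starting at 0. CTSL, GLA, NPC2 and ATP6V1D are highest with PMA, LAMP1 and ATP6V0D1 are highest with As2S2, and CTSS and ASAH1 lie below control with As2S2 and above it with PMA.

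Among the membrane and sterol transfer proteins, LAMP1 and LAMP2, the abundant glycoproteins that line the inner face of the lysosomal membrane, went different ways. LAMP1 had 256.3, 286.7 and 298.3 CPM in As2S2 libraries, 138.3, 140.7 and 132.3 CPM in PMA libraries and 155.9, 157.1 and 151.1 CPM in control libraries. As2S2 libraries lay far above the others, and PMA libraries lay below control without overlap. LAMP1 rose with As2S2, at 0.86 ± 0.07 (adjusted p = 1.53e-07). With PMA its value was -0.17 ± 0.07 (adjusted p = 0.0416), and the direction held with library totals (-0.43) and deposited TPM (-0.64), but the call was lost when any 1 of the PMA and control libraries except control replicate 2 was left out, at adjusted p of 0.0543 to 0.145, and with upper-quartile scaling (adjusted p = 0.0729).

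LAMP2 had 83.1, 69.5 and 71.7 CPM in As2S2 libraries, 131.9, 135.7 and 137.6 CPM in PMA libraries and 74.9, 68.4 and 75.3 CPM in control libraries. As2S2 and control libraries overlapped and PMA libraries lay above both. It was 0.04 ± 0.08 (adjusted p = 0.757) with As2S2 and rose by 0.89 ± 0.08 (adjusted p = 6.93e-08) with PMA on the log2 scale. SCARB2 (LIMP-2), a membrane protein and sorting receptor of lysosomes, had the same pattern with 30.8, 26.8 and 28.4 CPM in As2S2 libraries, 68.5, 70.7 and 67.8 CPM in PMA libraries and 25.2, 26.9 and 27.1 CPM in control libraries. It did not pass with As2S2, at 0.12 ± 0.09 (adjusted p = 0.287), and rose with PMA, at 1.39 ± 0.08 (adjusted p = 6.15e-10).

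The sterol carriers both rose. NPC2, a soluble protein of the lumen that hands cholesterol to the membrane protein NPC1, had 47.1, 42.9 and 43.4 CPM in As2S2 libraries, 95.1, 94.3 and 87.0 CPM in PMA libraries and 21.4, 27.3 and 24.9 CPM in control libraries. The 3 groups did not overlap, and the log2 fold change was 0.86 ± 0.09 (adjusted p = 3.17e-06) with As2S2 and 1.91 ± 0.09 (adjusted p = 4.57e-11) with PMA. NPC1 had 73.9, 71.7 and 76.3 CPM in As2S2 libraries, 56.0, 54.1 and 52.4 CPM in PMA libraries and 43.4, 42.4 and 44.8 CPM in control libraries. NPC1 rose by 0.76 ± 0.07 (adjusted p = 8.94e-07) with As2S2 and 0.31 ± 0.07 (adjusted p = 0.00156) with PMA, so NPC1 was highest with As2S2 and NPC2 with PMA. The PMA value of NPC1 was 0.05 (adjusted p = 0.554) with library totals and 0.14 (adjusted p = 0.303) with deposited TPM.

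MCOLN1, the calcium channel of lysosomes and a textbook TFEB target, had 13.3, 16.8 and 16.9 CPM in As2S2 libraries, 13.8, 14.6 and 13.3 CPM in PMA libraries and 13.6, 19.9 and 15.1 CPM in control libraries. All 3 groups overlapped, and its log2 fold change was -0.05 ± 0.14 (adjusted p = 0.821) with As2S2 and -0.21 ± 0.14 (adjusted p = 0.197) with PMA. Without control replicate 2 the As2S2 value was 0.13 (adjusted p = 0.433). With library totals the PMA value was -0.47 (adjusted p = 0.00578).

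The V0 subunits form the proton channel in the membrane. ATP6V0D1, which couples the channel ring to the V1 rotor, rose most with As2S2 and had 76.4, 85.2 and 81.2 CPM in As2S2 libraries, 58.0, 55.6 and 51.6 CPM in PMA libraries and 32.4, 41.2 and 33.8 CPM in control libraries. The 3 groups did not overlap. ATP6V0D1 rose by 1.18 ± 0.10 (adjusted p = 1.36e-07) with As2S2 and 0.62 ± 0.10 (adjusted p = 3.11e-05) with PMA against control, and its log2 value was 0.56 ± 0.09 (adjusted p = 7.73e-05) for As2S2 against PMA. With deposited TPM its PMA value was 0.16 (adjusted p = 0.0774).

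ATP6V0A1, the large subunit that lines the proton path, had 180.0, 208.5 and 212.9 CPM in As2S2 libraries, 150.4, 149.6 and 147.4 CPM in PMA libraries and 121.4, 118.1 and 116.2 CPM in control libraries. It rose by 0.76 ± 0.07 (adjusted p = 8.33e-07) with As2S2 and 0.33 ± 0.07 (adjusted p = 0.000869) with PMA, and the PMA value was 0.07 (adjusted p = 0.405) with library totals and -0.09 (adjusted p = 0.308) with deposited TPM. ATP6V0E1, a small subunit, had 259.6, 264.1 and 269.1 CPM in As2S2 libraries, 416.0, 428.7 and 424.0 CPM in PMA libraries and 163.9, 199.3 and 181.3 CPM in control libraries. PMA libraries were highest and control libraries lowest, without overlap, and the log2 fold change was 0.54 ± 0.07 (adjusted p = 2.38e-05) with As2S2 and 1.22 ± 0.07 (adjusted p = 5.02e-10) with PMA. The ring subunits ATP6V0B and ATP6V0C rose with both agents, ATP6V0B by 0.77 and 0.79 and ATP6V0C by 0.67 and 0.54 for As2S2 and PMA. With deposited TPM the PMA value of ATP6V0C was 0.08 (adjusted p = 0.593) and that of ATP6V0B was 0.32 (adjusted p = 0.0354). Whole counts of ATP6V0C were held by 1 library.

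The V1 subunits form the ATP-splitting head, its rotor and its stalks. ATP6V1D, part of the central rotor, had 23.1, 16.1 and 15.7 CPM in As2S2 libraries, 46.6, 48.8 and 49.3 CPM in PMA libraries and 11.1, 12.3 and 12.0 CPM in control libraries. The groups did not overlap, and As2S2 replicate 1 lay apart from the other As2S2 libraries. It rose by 0.63 ± 0.13 (adjusted p = 0.0012) with As2S2 and 2.03 ± 0.13 (adjusted p = 1.03e-09) with PMA, the highest PMA value of the 14 pump genes.

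ATP6V1B2, a subunit of the nucleotide-binding head, had 187.3, 160.3 and 168.0 CPM in As2S2 libraries, 160.5, 156.0 and 153.5 CPM in PMA libraries and 108.8, 106.0 and 110.9 CPM in control libraries. It rose by 0.66 ± 0.07 (adjusted p = 2.68e-06) with As2S2 and 0.53 ± 0.07 (adjusted p = 7.6e-06) with PMA, and the PMA value was 0.05 (adjusted p = 0.575) with deposited TPM. ATP6V1H, which regulates the coupling of V1 to V0, had 58.2, 52.4 and 48.6 CPM in As2S2 libraries, 39.8, 38.8 and 40.4 CPM in PMA libraries and 30.4, 30.4 and 31.7 CPM in control libraries. It rose by 0.78 ± 0.09 (adjusted p = 3.32e-06) with As2S2 and 0.36 ± 0.09 (adjusted p = 0.00176) with PMA, and the PMA value was 0.10 (adjusted p = 0.336) with library totals and 0.03 (adjusted p = 0.827) with deposited TPM. As2S2 libraries lay above PMA libraries without overlap for ATP6V1H. For ATP6V1B2 they overlapped, and As2S2 against PMA gave 0.13 ± 0.07 (adjusted p = 0.113).

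ATP6V1A, the catalytic subunit, had 52.4, 40.6 and 39.8 CPM in As2S2 libraries, 76.2, 74.9 and 81.1 CPM in PMA libraries and 39.6, 34.0 and 37.6 CPM in control libraries. The As2S2 libraries lay above control without overlap, but the log2 fold change of 0.25 ± 0.10 (adjusted p = 0.0622) missed the threshold. It passed without As2S2 replicate 2 (0.32, adjusted p = 0.0473) or replicate 3 (0.33, adjusted p = 0.0381) and was 0.12 (adjusted p = 0.277) without As2S2 replicate 1. With PMA it rose by 1.06 ± 0.10 (adjusted p = 1.95e-07). ATP6V1E1, of the peripheral stalk, had 94.1, 69.6 and 76.1 CPM in As2S2 libraries, 147.6, 148.6 and 137.8 CPM in PMA libraries and 72.0, 71.9 and 72.0 CPM in control libraries. As2S2 and control libraries overlapped. Its value was 0.15 ± 0.09 (adjusted p = 0.21) with As2S2 and 1.01 ± 0.09 (adjusted p = 1.02e-07) with PMA.

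The remaining pump genes rose with both agents. ATP6V1C1, ATP6V1F, ATP6V1G1 and the accessory ATP6AP1 had log2 fold changes of 0.56, 0.34, 0.55 and 0.58 with As2S2 and 0.95, 0.76, 0.72 and 0.52 with PMA, at adjusted p of at most 0.00572. The number of counts per TPM of ATP6V1C1 varied 1.68-fold between libraries, and its As2S2 value of 0.49 with deposited TPM missed the threshold (adjusted p = 0.0842). Under deposited TPM, ATP6AP1 was 0.05 with PMA (adjusted p = 0.588).

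**Figure D4:**
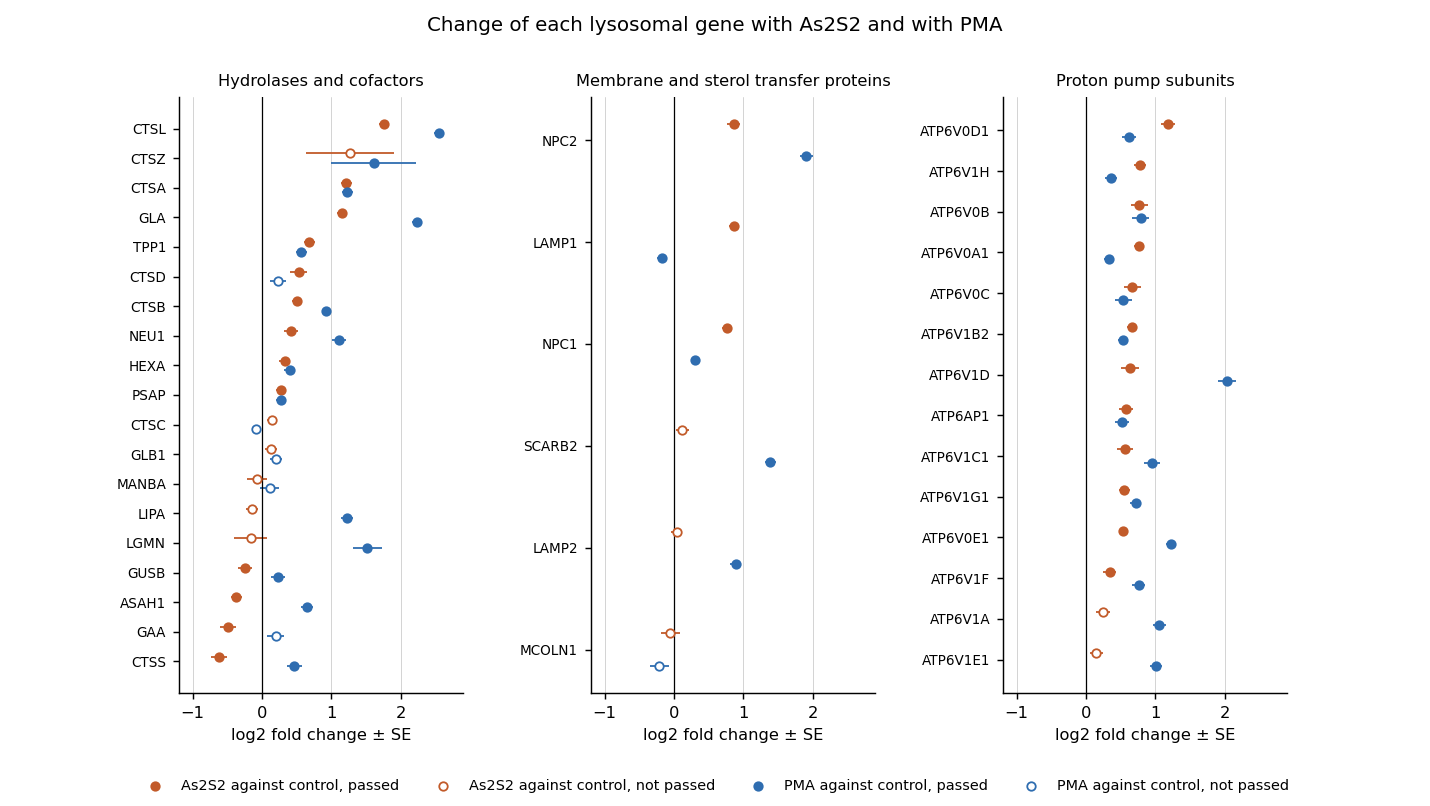
Log2 fold change with its SE for each gene against control, As2S2 in orange and PMA in blue, filled where the adjusted p passed 0.05. PMA values exceed As2S2 values for CTSL, GLA, NPC2, SCARB2 and ATP6V1D, and As2S2 values exceed PMA values for LAMP1, NPC1, ATP6V0D1, ATP6V0A1 and ATP6V1H.

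Both comparisons used the same control libraries, so their values stand side by side here with no measure of their likeness. Of the 39 genes, 22 rose in both (17 with library totals and 11 with deposited TPM), and CTSD rose with As2S2 while its PMA value did not pass. Taken singly, 20.3% of all genes tested rose with As2S2 and 30.8% with PMA. The share of all genes that rose in both was not counted, and the shared control libraries can raise it. CTSS, GUSB and ASAH1 fell with As2S2 and rose with PMA, LAMP1 rose with As2S2 and fell with PMA, and GAA fell with As2S2 alone past the threshold. CTSZ, LIPA, LGMN, LAMP2, SCARB2, ATP6V1A and ATP6V1E1 rose with PMA and did not pass with As2S2, and CTSC, GLB1, MANBA and MCOLN1 passed in neither.

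The direct comparison of As2S2 with PMA tested these differences, and the control libraries entered it through the count filter, the scaling and the shared estimate of the spread. Of the 39 genes 7 were higher and 19 lower in As2S2 cells, with a median log2 fold change of -0.34. Among all genes tested 61.4% passed, 30.9% upward and 30.6% downward, and the median was 0.00. LAMP1 was the 1 member higher by a log2 fold change of at least 1, against 9.54% of all genes. Hydrolases were lower in 10 cases and higher in 2 (median -0.43), membrane and sterol transfer genes lower in 3 and higher in 2 (median -0.34), and pump genes lower in 6 and higher in 3 (median -0.10). With library totals, where the median of all genes was 0.18, 13 members were higher and 18 lower. With deposited TPM, where it was also 0.18, 16 were higher and 14 lower. The median of the members was -0.17 and -0.05 under these scalings, and that of the hydrolases -0.25 and -0.08. The pump genes gave 6 higher with 5 lower (median 0.08) and 7 higher with 4 lower (median 0.25) under these scalings, and the hydrolases 4 higher with 10 lower and 6 higher with 7 lower. The share of upward calls among all genes was 62.9% and 72.0%, in place of 50.2%. Without both libraries that stood apart 11 members were higher and 20 lower. Calls over all genes grew as well, to 4943 higher and 4951 lower, in place of 4503 and 4463.

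The genes furthest below PMA were LGMN at -1.68 ± 0.22 (adjusted p = 5.14e-06), ATP6V1D at -1.40 ± 0.12 (adjusted p = 7.13e-08), LIPA at -1.36 ± 0.09 (adjusted p = 1.48e-09) and SCARB2 at -1.27 ± 0.08 (adjusted p = 2.18e-09). GLA, CTSS, NPC2 and ASAH1 followed at -1.09, -1.09, -1.05 and -1.02, with adjusted p of at most 4.2e-07. LAMP2, ATP6V1E1 and ATP6V1A stood at -0.85 ± 0.08 (adjusted p = 1.25e-07), -0.86 ± 0.09 (adjusted p = 7.15e-07) and -0.81 ± 0.10 (adjusted p = 4.34e-06), and ATP6V0E1 at -0.68 ± 0.07 (adjusted p = 5.63e-07). The other 7 that were lower were CTSL, NEU1, GAA, GUSB, CTSB, ATP6V1F and ATP6V1C1, at log2 values of -0.69 to -0.39 apart from CTSL at -0.79. With deposited TPM 5 of these 7 lost the call, CTSB at -0.09 (adjusted p = 0.18), GAA at -0.24 (adjusted p = 0.0838), GUSB at 0.01 (adjusted p = 0.917), ATP6V1F at -0.06 (adjusted p = 0.491) and ATP6V1C1 at -0.09 (adjusted p = 0.711). ATP6V1C1 also lost it with library totals, at -0.22 (adjusted p = 0.139), and ATP6V1F with the length trend removed, at -0.02 (adjusted p = 0.831). For these 19 genes the As2S2 and PMA libraries did not overlap in CPM. The 19 were picked by the test on the same libraries, so this adds no separate support, and the share over all genes was not counted. Above PMA stood LAMP1 at 1.03 ± 0.07 (adjusted p = 3.24e-09), ATP6V0D1 at 0.56, NPC1 at 0.45 ± 0.07 (adjusted p = 5.95e-05), ATP6V0A1 at 0.43 ± 0.07 (adjusted p = 8.34e-05) and ATP6V1H at 0.42 ± 0.09 (adjusted p = 0.000468), besides CTSC and CTSD. CTSD, at 0.30 ± 0.12 (adjusted p = 0.0397), lost the call without PMA replicate 1 or 2 or As2S2 replicate 2 or 3, with adjusted p of 0.107 to 0.126. CTSA, HEXA, PSAP, TPP1, ATP6V0B, ATP6V0C, ATP6V1B2, ATP6V1G1 and ATP6AP1 rose against control with both agents and did not pass between them, with log2 values of -0.18 to 0.13 and SEs of 0.07 to 0.12. ATP6V1G1 was near the threshold, at -0.18 (adjusted p = 0.0518), and passed under 9 alternatives, among them DESeq2 (adjusted p = 0.0342) and upper-quartile scaling (adjusted p = 0.0134), but was 0.00 with library totals. Without both libraries that stood apart, ATP6V1G1 passed at -0.22, TPP1 at 0.16, ATP6AP1 at 0.15 and ATP6V0C at 0.23. With deposited TPM the other 8 of these 9 passed as higher in As2S2 than in PMA libraries, at log2 values of 0.29 to 0.47.

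**Figure D5:**
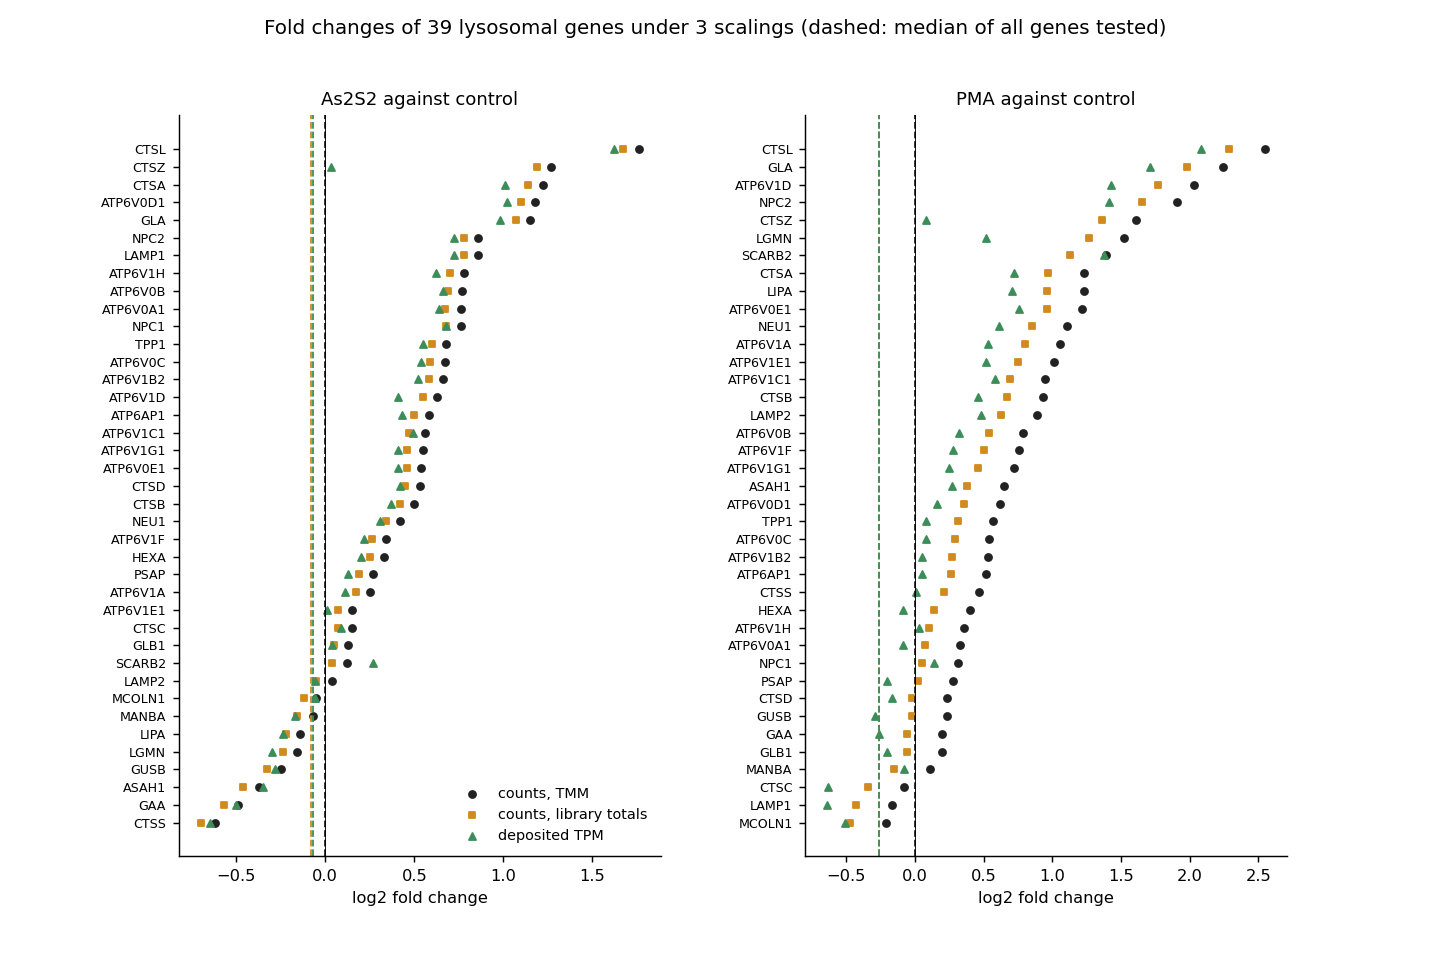
Log2 fold change of each gene against control under TMM-scaled counts (circles), counts scaled to library totals (squares) and deposited TPM (triangles), with the median of all genes tested as a dashed line of the same colour. With As2S2 the circles and squares lie close together, and CTSZ lies furthest off with deposited TPM (0.03, against 1.27 and 1.19), and with PMA the medians of all genes and most members shift to the left, by -0.26 for all genes.

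Promoter E-boxes were set beside the calls as a description. Of the 9 genes with CACGTG in their window, 7 rose with As2S2 (ATP6V0B, ATP6V0D1, ATP6V1G1, CTSA, CTSD, LAMP1 and NEU1), GAA fell and MCOLN1 did not pass. Of the 17 with a window and no E-box, 10 rose with As2S2 and 1 fell. Of the 4 members with a log2 fold change of at least 1 with As2S2, CTSA and ATP6V0D1 had the E-box and CTSL and GLA had none. With PMA 5 of the 9 rose and 1 fell, against 15 and 0 of the 17. The gene that fell was LAMP1, whose PMA call was lost under several alternatives. These PMA counts are on the TMM scale and depend on it. Among all genes tested, the shares higher and lower were 20.3% and 19.6% with As2S2 and 30.8% and 31.1% with PMA. Median log2 fold changes were 0.55 and 0.63 with As2S2, and 0.62 and 0.76 with PMA, for genes with and without the E-box. In the stretches shown, MCOLN1 and GAA hold as many E-boxes as CTSA.

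The E-box factors themselves were measured. TFEB had 5.11, 5.79 and 5.7 CPM in As2S2 libraries, 3.95, 4.51 and 4.79 CPM in PMA libraries and 3.14, 3.57 and 3.69 CPM in control libraries. It rose with As2S2, at 0.67 ± 0.16 (adjusted p = 0.00268), and its PMA value was 0.35 ± 0.16 (adjusted p = 0.0694). TFE3, the most abundant of these factors in CPM and in TPM, had 64.8, 70.1 and 78.9 CPM in As2S2 libraries, 39.2, 38.3 and 32.3 CPM in PMA libraries and 47.9, 54.2 and 45.2 CPM in control libraries. It rose with As2S2, at 0.54 ± 0.10 (adjusted p = 0.000479), and fell with PMA, at -0.42 ± 0.10 (adjusted p = 0.00185), and the 3 groups did not overlap. MITF had 10.2 ± 1.85 CPM in As2S2 libraries, 7.11 ± 0.762 CPM in PMA libraries and 11.1 ± 1.2 CPM in control libraries, and its log2 fold change was -0.12 ± 0.14 (adjusted p = 0.542) with As2S2 and -0.64 ± 0.15 (adjusted p = 0.00145) with PMA. Of 19 factors and nutrient-sensing regulators listed with them, 7 rose and 2 fell with As2S2, and 9 rose and 4 fell with PMA. The As2S2 shares were 36.8% and 10.5%, against 20.3% and 19.6% of all genes tested. Those with PMA were 47.4% and 21.1%, against 30.8% and 31.1%. With library totals and with deposited TPM, As2S2 gave 6 higher with 3 lower and 3 higher with 3 lower, and PMA 6 higher with 5 lower and 4 higher with 7 lower. TFE3 kept both directions and calls with library totals and with deposited TPM. LAMTOR5, a subunit of the Ragulator scaffold on lysosomes, rose in both, by 0.53 ± 0.07 (adjusted p = 1.17e-05) and 1.02 ± 0.07 (adjusted p = 1.4e-09). Whole counts of LAMTOR5 were held by 3 of the 9 libraries, so its values are less certain. RPTOR, the substrate-binding subunit of mTORC1, fell with PMA, at -0.92 ± 0.09 (adjusted p = 2.93e-07).

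Of 35 other luminal enzymes tested, 8 rose and 7 fell with As2S2 (median -0.02), and 19 rose and 1 fell with PMA (median 0.37). The As2S2 shares lay near those of all genes tested: 22.9% rose and 42.9% passed in either direction, against 20.3% and 39.9%. Those higher and lower with PMA were 54.3% and 2.86%, against 30.8% and 31.1%. With As2S2 the balance was 6 higher and 10 lower with library totals (median -0.11) and 6 higher and 6 lower with deposited TPM. The PMA balance was 15 higher and 10 lower with library totals and 11 higher and 12 lower with deposited TPM, where the median was -0.03. GALC, the galactosylceramidase, fell with As2S2, at -0.79 ± 0.13 (adjusted p = 0.000218). SCPEP1, a serine carboxypeptidase, had 6.52, 5.19 and 6.64 CPM in As2S2 libraries, 85.9, 84.9 and 84.8 CPM in PMA libraries and 8.27, 7.76 and 7.16 CPM in control libraries. It rose with PMA, at 3.46 ± 0.10 (adjusted p = 1.32e-13), and fell with As2S2, at -0.34 ± 0.12 (adjusted p = 0.032).

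Of 26 other membrane proteins of lysosomes, 11 rose and 5 fell with As2S2 and 12 rose and 5 fell with PMA. The As2S2 shares were 42.3% and 19.2%, against 20.3% and 19.6% of all genes tested. Those with PMA were 46.2% and 19.2%, against 30.8% and 31.1%. Library totals gave 7 higher and 5 lower with As2S2 and 6 higher and 8 lower with PMA, and deposited TPM gave 5 higher and 4 lower with As2S2 and 5 higher and 10 lower with PMA. LAPTM4B, an abundant transmembrane protein, rose with As2S2, at 0.77 ± 0.06 (adjusted p = 1.91e-07). The 2-pore channel TPCN1 fell with both, at -1.43 ± 0.13 (adjusted p = 3.83e-07) and -1.24 ± 0.13 (adjusted p = 3.76e-07). SLC17A5, the exporter of sialic acid, rose with both, at 0.30 ± 0.09 (adjusted p = 0.0174) and 1.83 ± 0.09 (adjusted p = 4.69e-11), although its As2S2 value was 0.22 (adjusted p = 0.0868) with library totals and 0.14 (adjusted p = 0.319) with deposited TPM. Of 20 other pump subunits and assembly factors listed, 15 were tested. As2S2 gave 4 higher and 1 lower (26.7% and 6.67%), and PMA gave 8 higher (53.3%) and none lower, beside the same shares of all genes. For PMA, library totals gave 7 higher and 3 lower and deposited TPM 7 higher and 1 lower. RNASEK, a small membrane protein bound to the pump, had 150.6, 168.1 and 174.2 CPM in As2S2 libraries, 170.9, 168.6 and 166.4 CPM in PMA libraries and 79.2, 96.0 and 78.2 CPM in control libraries, but no library held whole counts of it. The tissue-restricted subunits ATP6V0A4, ATP6V1B1 and ATP6V1G3 did not have enough counts to be tested. ATP6V0D2, the form of the d subunit known from osteoclasts, stayed at or under 0.178 CPM in As2S2 and control libraries and had 0.802, 1.27 and 1.24 CPM in PMA libraries, and it was singled out after its values were seen.

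Of 12 genes that deliver hydrolases to lysosomes, 7 rose and 1 fell with As2S2, and 4 rose and 5 fell with PMA. As2S2 against PMA gave 7 higher and 1 lower. The As2S2 shares were 58.3% and 8.33%, against 20.3% and 19.6% of all genes tested. The PMA shares of 33.3% and 41.7% lay nearer to those of all genes, 30.8% and 31.1%. Between As2S2 and PMA they were 58.3% and 8.33%, against 30.9% and 30.6%. The As2S2 balance was 6 higher with 3 lower and 6 higher with 1 lower under library totals and deposited TPM, the PMA balance 2 higher with 6 lower and 1 higher with 6 lower, and As2S2 against PMA 10 higher with 1 lower under both. IGF2R, the large mannose 6-phosphate receptor, had 174.6, 183.2 and 180.4 CPM in As2S2 libraries, 36.5, 39.2 and 38.5 CPM in PMA libraries and 145.0, 126.8 and 134.1 CPM in control libraries. As2S2 and PMA libraries lay on opposite sides of control, without overlap. Against control IGF2R was 0.41 ± 0.07 (adjusted p = 0.000251) with As2S2 and -1.83 ± 0.07 (adjusted p = 4.31e-12) with PMA on the log2 scale, and 2.24 ± 0.08 (adjusted p = 4.93e-13) for As2S2 against PMA. No library held whole counts of IGF2R or of GNPTG, a subunit of the enzyme that makes the mannose 6-phosphate tag. GNPTG rose with both agents, at 1.16 ± 0.10 (adjusted p = 4.21e-07) and 0.70 ± 0.11 (adjusted p = 2.49e-05). With deposited TPM its PMA value was 0.20 (adjusted p = 0.186). SORT1 (sortilin), an alternative sorting receptor, had 53.0, 46.8 and 51.6 CPM in As2S2 libraries, 133.2, 141.5 and 141.5 CPM in PMA libraries and 76.3, 69.5 and 70.4 CPM in control libraries. It fell with As2S2, at -0.51 ± 0.08 (adjusted p = 6.11e-05), and rose with PMA, at 0.95 ± 0.07 (adjusted p = 1.56e-08), so IGF2R and SORT1 changed in opposite directions in both comparisons, also with library totals and with deposited TPM.

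Monocytes and macrophages are rich in lysosomes, so their markers are given beside these results. Of 15 markers, CD163 and MARCO were at 0 in every library, and CD14 had at most 1.5 CPM. The list summed to 182.2 to 201.5 TPM in As2S2 libraries, 303.3 to 328.0 TPM in PMA libraries and 181.7 to 192.3 TPM in control libraries. With As2S2 2 of the 8 markers tested rose and 2 fell, and with PMA 4 rose and 2 fell, or 1 and 3 with deposited TPM. Over all genes tested 20.3% rose and 19.6% fell with As2S2, and 30.8% rose and 31.1% fell with PMA. CD68, a glycoprotein of late endosomes and lysosomes related to the LAMP proteins, had 286.6, 324.4 and 341.4 CPM in As2S2 libraries, 690.5, 672.0 and 684.1 CPM in PMA libraries and 261.1, 284.6 and 245.2 CPM in control libraries, with no whole counts in any library. Of the 10 erythroid markers, 3 rose and 3 fell with As2S2, and 3 rose and 5 fell with PMA (median log2 fold change -0.42). The gamma globin HBG2 took up most of their summed level: the list summed to 10263.1 to 11106.9 TPM in As2S2 libraries, 35070.0 to 35955.0 TPM in PMA libraries and 8087.5 to 8536.9 TPM in control libraries. Granulocyte, lymphoid and endothelial marker lists summed to at most 6.54, 3.85 and 20.6 TPM in any library. The part of other cell types and of globin RNA in the lysosomal results was not tested.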

How the data were processed

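MEG-01 RNA-seq was deposited as estimated counts and TPM per Ensembl gene, in a table for each agent beside the same control columns, which differed in 0 values between the tables. Estimated counts, of which 70.8% to 73.4% of those above 0 were whole per library, and TPM were made by the authors, with fastp 0.22.0 and DESeq2 named in the submitters' processing notes. No aligner, counter or strand setting is named there, and the builds in those notes are not human although the identifiers are, so no coordinates were taken from the files.

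Estimated counts were rounded and fitted with edgeR 4.0.16 (quasi-likelihood test, TMM scaling, filterByExpr) in R 4.3.3. All 9 libraries entered 1 fit, p-values were adjusted by Benjamini-Hochberg over 14592 genes, and the threshold was 0.05. Every adjusted p in the text comes from this fit unless another is named, and SEs are those of the log2 fold change. The spread between replicates was 0.0909 (square root of the common dispersion). Values under library totals come from the same edgeR test without TMM, and values under deposited TPM from limma 3.58.1 on log2(TPM + 1), which understates changes of low genes. Both were chosen after seeing the data. Other alternatives were DESeq2 1.42.0, limma-voom, RLE and upper-quartile scaling, 2 other filters, other thresholds, a length correction, fits on 2 groups, a replicate block and left-out libraries. The pair of libraries that stood apart was picked from these same data, and leaving it out can narrow the spread. The fits were tested on simulated data.

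Per library values were printed for up to 4 members of each class and contrast with the smallest adjusted p, up to 2 that moved against their class, and MCOLN1, LAMP1, CTSD and CTSB. From each list of other lysosomal genes, up to 2 in each direction per contrast were eligible, besides TFEB, TFE3 and MITF. Some of those eligible are not reported here. The members and lists were chosen with earlier results of these data known. Promoter sequences were read from RefSeq windows of GRCh38.p14.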

Additional observations from a re-analysis of the deposited data

How the results depend on the processing

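Over 117 results (39 genes in 3 comparisons) and 23 alternatives, 2438 of 2682 values kept their direction and side of the threshold, 129 lost the call, 57 gained it, 46 moved without a call and 12 reversed. All 12 lay in comparisons with PMA. Against control, PMA gave GUSB at -0.02 with library totals and -0.29 with deposited TPM, where HEXA was -0.09, PSAP -0.20 and ATP6V0A1 -0.09. For As2S2 against PMA, deposited TPM gave CTSA 0.29, GUSB 0.01, HEXA 0.29, PSAP 0.33 and ATP6V0B 0.34, library totals gave PSAP 0.17, and removing the length trend gave ATP6V0B 0.27. The median of the pump genes in that comparison was 0.00 with the length trend removed, 0.08 with library totals and 0.25 with deposited TPM, in place of -0.10. The cause was not tested.

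Requiring a log2 fold change of at least 1 left 3 hydrolases higher and 0 lower, 0 membrane genes higher and 1 pump gene higher with As2S2. With PMA it left 7 hydrolases, 2 membrane genes and 4 pump genes higher and 0 membrane genes lower. For As2S2 against PMA it left 0 hydrolases higher and 5 lower, 1 membrane gene higher and 2 lower, and 0 pump genes higher and 1 lower. With library totals PMA gave 9 hydrolases higher and 1 lower and 2 membrane genes lower, and As2S2 against PMA gave 4 hydrolases and 6 pump genes higher. With deposited TPM PMA gave 8 hydrolases higher and 3 lower, 2 membrane genes lower and 8 pump genes higher, and As2S2 against PMA gave 6 hydrolases and 7 pump genes higher. With the length trend removed PMA gave 1 hydrolase lower (CTSC) and 0 membrane genes lower, and 5 pump genes were higher in As2S2 than in PMA cells, a count that was also 5 without both libraries that stood apart. LAMP1 lost its PMA call, leaving 0 membrane genes lower, under upper-quartile scaling, the stricter filter and a threshold of 0.01. Upper-quartile scaling and the threshold of 0.01 left 1 hydrolase higher in As2S2 than in PMA cells. Leaving out 1 library at a time gave 0 to 1 membrane genes lower with PMA and 1 to 2 hydrolases higher in As2S2 than in PMA cells.

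Replicate numbers are shared by the groups, and the labels do not say what a number stands for. The deviations of same-numbered libraries correlated at -0.073 to 0.149 over 9 pairs, with 1 pair over 0.1. Pairs with different numbers reached -0.215 and 0.149, so these values cannot show whether same-numbered samples were handled together. With the replicate block 25 members rose and 3 fell with As2S2, 34 rose and 1 fell with PMA, and 7 were higher and 19 lower for As2S2 against PMA. CTSZ gave no value under the stricter filter, with only 2 groups fitted or without PMA replicate 3. With 3 libraries a group, genes at the depth of CTSZ and LGMN have wide errors, and reads shared between similar genes cannot be resolved from these tables.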
